A study of Mus musculus with 24 samples.

Results

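The genes described here are the 4 CD3 chains of the T cell receptor (TCR) complex, Cd3d, Cd3e, Cd3g and Cd247, with 5 genes that act directly behind them, Lck, Zap70, Lat, Sit1 and Ptpn22. They were taken as a named list of 9 genes from the 55401 genes of the single-cell expression tables. The choice was by symbol, with no threshold on a measured value but with earlier results of these data known. The study followed liver invariant natural killer T (LiNKT) cells of NOD mice, a strain prone to autoimmune diabetes, with and without αGalCer/CD1d-NPs, nanoparticles that carry CD1d molecules loaded with the glycolipid α-galactosylceramide. Treated mice received 20 µg of protein intravenously 2 times a week for 5 weeks, and untreated mice are the controls. All the cells analysed here came from livers and were sorted with an αGalCer/CD1d tetramer. The sort used a gate of intermediate TCRβ staining, so surface TCR itself took part in choosing the cells. Full-length single-cell RNA-seq (SmartSeq2) used 3 male mice per group at 13 to 15 weeks. Whole-genome bisulfite sequencing, which reads DNA methylation, used 7 untreated females of 17 weeks and 4 treated mice of 16 weeks whose sex is not given in the labels. Single-nucleus ATAC, which reads open chromatin from the cuts of a transposase, used 5 untreated and 4 treated male mice of 13 to 15 weeks. The labels list 1 sample per group for each of the 3 kinds of data. For methylation the study describes replicate sorts, but the deposited tables hold 1 value per group. No difference below therefore has a replicate check, and no p-value is given.

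In a T cell the αβ receptor binds its ligand but has almost no cytoplasmic tail, and the signal enters the cell through the CD3 chains, which pair as δε, γε and ζζ. Lck phosphorylates the tyrosine motifs of these tails, Zap70 docks on them and phosphorylates Lat, and Lat gathers the enzymes that start calcium, Ras and PKC signalling. Sit1 is a transmembrane adaptor that dampens this cascade, and Ptpn22 is a phosphatase that removes the activating phosphates from Lck and Zap70. In invariant NKT cells the same machinery serves a receptor for lipids on CD1d whose α chain is nearly fixed.

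The expression tables gave whole read counts per gene and cell. The cells to which the study assigned a sub-cluster were used, 273 of 284 untreated and 251 of 282 treated cells, with medians of 635257 and 599896 reads and of 861 and 850 genes per cell. Levels are counts per 1000000 (CPM) of the summed cells of a group, ratios are log2 of treated over untreated after adding 1 CPM, and a cell counts as positive from 1 read on. Intervals are exact 95% intervals for counting error only. Reads of macrophage genes (Lyz2 and others) lay in 3 untreated and 11 treated cells, those of hepatocyte genes in 0 and 3 cells, and those of B cell genes in 1 and 0 cells. The summed level of the 5 macrophage genes was 0.017 CPM in untreated cells, with Lyz2 and Adgre1 at 0, and 1919 CPM in treated cells. Of the 11 treated cells with macrophage reads, 1 had a read on any CD3 chain, and none had a read on Lck, Zap70, Lat, Sit1 or Ptpn22. Reads on at least 1 gene of a list of NK cell genes lay in 24.9% of untreated and 49.8% of treated cells, and 122 of those 125 treated cells carried CD3 reads. The summed level of these 4 NK cell genes was 503 CPM in untreated cells, with Eomes at 0, and 1469 CPM in treated cells. The list of 4 iNKT genes, which includes the member Cd3e, had reads in 97.1% and 91.6% of cells. Cd3e was read in 81.3% and 79.7% of cells, and Trac, a TCR constant gene, in 83.9% and 74.1%. Zbtb16 was read in only 4.40% and 6.37% of cells and Klrb1c in 5.49% and 9.16%. The share of the list is therefore no measure of iNKT identity.

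Pooled levels of 8 of the 9 genes lay within 2-fold between the groups, and Sit1, the inhibitory adaptor, was 3.43-fold lower in treated cells. Among the 15052 genes with at least 10 counts, 20.1% were at least 2-fold higher and 17.2% at least 2-fold lower in treated cells. Among the 1590 genes with a mean of at least 100 CPM, where all 9 members lie, the shares were 6.16% and 5.41%, so the count of 1 in 9 is near the background and describes Sit1 alone. The median log2 ratio was 0.08 over the 9 members and 0.02 over all genes tested. The share of positive cells moved by at least 10 percentage points for 1 member over all the cells used, Sit1, against 0.352% of genes higher and 0.658% lower among all tested, and 2.20% and 4.03% among those of at least 100 CPM. Without the cells that carried reads of other cell types it moved that far for 3 members, with Lck and Zap70 higher in treated cells beside the lower Sit1. The shares over all genes above hold for all the cells used and not for this setting. Leaving those cells out also raised the differences of Cd3d, Cd3e and Cd3g, from -3.31, -1.64 and 0.13 points to -0.06, 2.93 and 4.68.

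**Figure D1:**
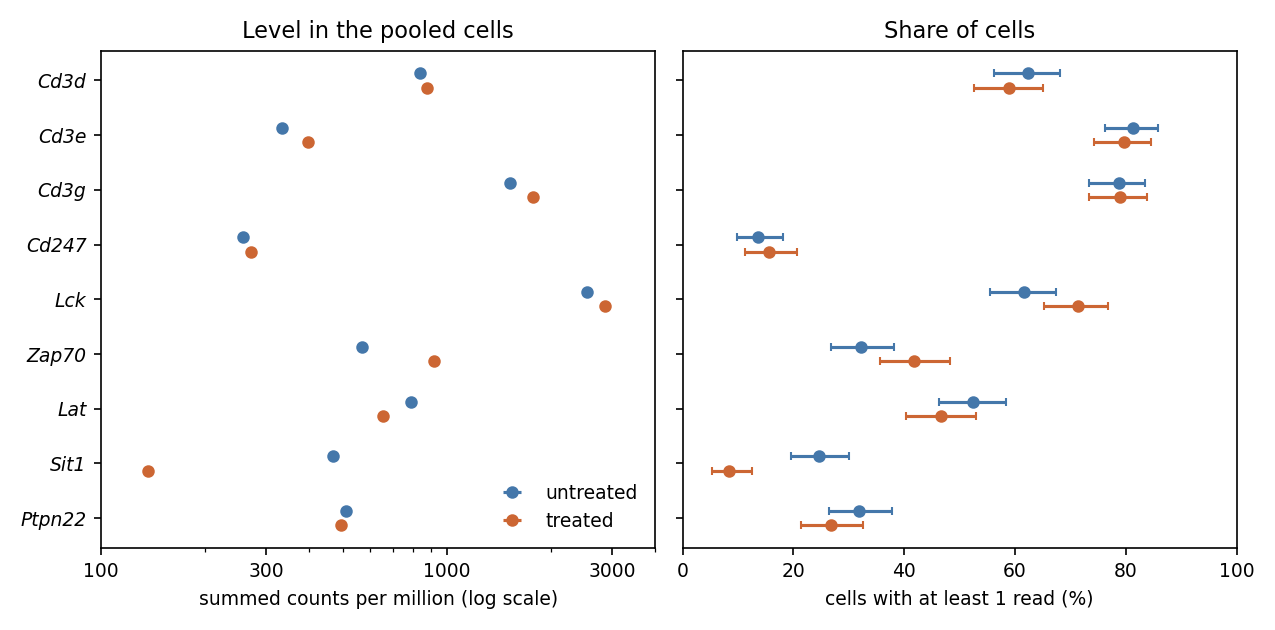
Pooled expression in CPM (log axis, left) and share of cells with at least 1 read in percent (right) for the 9 genes in 273 untreated and 251 treated SmartSeq2 cells, with exact 95% intervals for counting error. Sit1 separates in both panels (468 against 137 CPM, 24.5% against 8.37% of cells), Zap70 is higher in the treated cells, the CD3 chains lie close together, and Lck is higher over all cells but not in the level of lane 2.

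Cd3g, the γ chain, had the highest pooled level of the CD3 chains, at 1525 CPM in untreated and 1780 in treated cells (log2 ratio 0.22), and reads in 78.8% and 78.9% of cells. Cd3d, the δ chain, stood at 837 and 873 CPM (0.06) with reads in 62.3% and 59.0% of cells. Cd3e, the ε chain that both δε and γε pairs need, stood at only 335 and 398 CPM (0.25) but was the most widely detected, in 81.3% and 79.7% of cells. A Cd3e-positive cell therefore held few reads, with medians of 130 and 153, against 990 and 1063 for Cd3g. Cd247, the ζ chain, reached 257 and 271 CPM (0.08) in only 13.6% and 15.5% of cells, and its positive cells held medians of 1165 and 912 reads. Levels per kilobase used the joined exons of all annotated transcripts of a gene, so they and the ranks below depend on the annotation. On this scale Cd3g and Cd3d were level at 466 and 461 CPM in untreated cells, Cd3e followed at 82.0 and Cd247 at 48.2. In treated cells the order was the same, with 544, 481, 97.5 and 50.8 CPM per kilobase.

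At least 1 of the 4 chains had reads in 264 of 273 untreated cells (96.7%, interval 93.8 to 98.5) and in 235 of 251 treated cells (93.6%, interval 89.9 to 96.3). Among the treated cells with no macrophage reads the share was 97.5%. Cd3d, Cd3e and Cd3g were all seen in 38.8% of untreated and 44.2% of treated cells, and the remaining cells lacked reads on 1 or more of them at this depth. Reads on a chain therefore describe detection in this assay, and a cell without them is not shown to lack the chain.

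The 3 genes for the γ, δ and ε chains sit side by side on chromosome 9, and the same 3 differentially methylated regions (DMRs) lie within 50 kb of each. The authors' DMR list held 2873 regions, 1983 with less methylation in treated cells (losses) and 890 with more (gains). A region's value is the mean methylated fraction that the authors deposited for the region, and coordinates are GRCm38. CpG positions are counted on both strands. The plain average over a region's positions can differ from the deposited value. Averages given with printed sequences are plain averages. In this bulk measurement a change in each cell and a change in the mix of cells cannot be told apart. The first loss, chr9:44981814-44982617, began 28 bp after the Cd3d start and reached an exon. It held 32 positions, with means of 0.151 in untreated and 0.010 in treated cells. In the second, chr9:44984153-44985669 in the Cd3d body, all 42 positions were lower in treated cells, with means of 0.157 and 0.047. The third, chr9:45007405-45007758, lay in an intron of Cd3e, 2.0 kb after its start, where all 17 positions were lower and the means were 0.185 and 0.031. All 3 regions were thus lightly methylated in untreated and nearly unmethylated in treated cells.

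The Cd3e intron is shown because it is the one site of the CD3 cluster where methylation and chromatin readouts both separate. Its last 300 bases, plus strand, follow with CpG dinucleotides in capitals. The 14 CpG positions in them averaged 0.181 in untreated and 0.016 in treated cells.
Cd3e intron, chr9:45007459-45007758: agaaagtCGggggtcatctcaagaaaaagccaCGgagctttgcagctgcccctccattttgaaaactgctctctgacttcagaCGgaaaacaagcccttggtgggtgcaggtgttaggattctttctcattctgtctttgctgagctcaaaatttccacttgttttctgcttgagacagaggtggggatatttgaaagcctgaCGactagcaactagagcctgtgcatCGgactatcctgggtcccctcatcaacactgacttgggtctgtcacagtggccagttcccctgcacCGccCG

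The ATAC fragments carry barcodes that end in 1 or 2, and the labels do not say which ending is which group, so values are given per ending and neither ending is called treated. Barcodes with at least 1000 fragments numbered 8565 with ending 1 and 7237 with ending 2, with medians of 7104 and 8591 fragments, and 100 barcode sequences of 16 bases occurred with both endings. Over the whole 354 bp Cd3e region, ending 1 had 265 insertions and ending 2 had 1151, or 1.63 and 7.69 insertions per 1000000 of that ending (IPM), a 4.72-fold difference. The 2 Cd3d regions had 10.7 and 10.6, and 8.57 and 10.8 IPM, under a 2-fold difference. The promoters of the 3 genes, taken as 2 kb to each side of the start, were alike between the endings. Cd3e had 61.3 and 63.6 IPM there, Cd3d 42.3 and 43.9, and Cd3g 39.9 and 41.7. Within 5 kb of the Cd3d start, the 100-base bin with the most insertions was centred 4850 bases downstream of the start in both endings, at 15.97 and 17.68 IPM.

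Cd247 was the only member with gains of methylation, and it also carried losses. The losses lay towards the 5′ end of this long gene and the gains further in, all in introns. At chr1:165789696-165790799, 1.6 kb after the start, 47 of 49 positions were lower in treated cells (means 0.430 and 0.292). Its positions ran from 0.07 to 0.93 in untreated and from 0 to 0.78 in treated cells, with the low values nearer the start of the gene. At chr1:165801744-165802228, 13.3 kb in, all 20 positions were lower (0.786 and 0.317). At chr1:165840699-165841482, 52.4 kb in, all 69 positions were higher in treated cells (means 0.109 and 0.389). At chr1:165849892-165850388, 61.5 kb in, all 12 were higher (0.597 and 0.915). A gain of 69 or more positions was uncommon in the list, with 21 among the 890. Single positions of the long gain ranged from 0 to 0.56 in untreated and from 0.07 to 0.77 in treated cells.

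**Figure D2:**
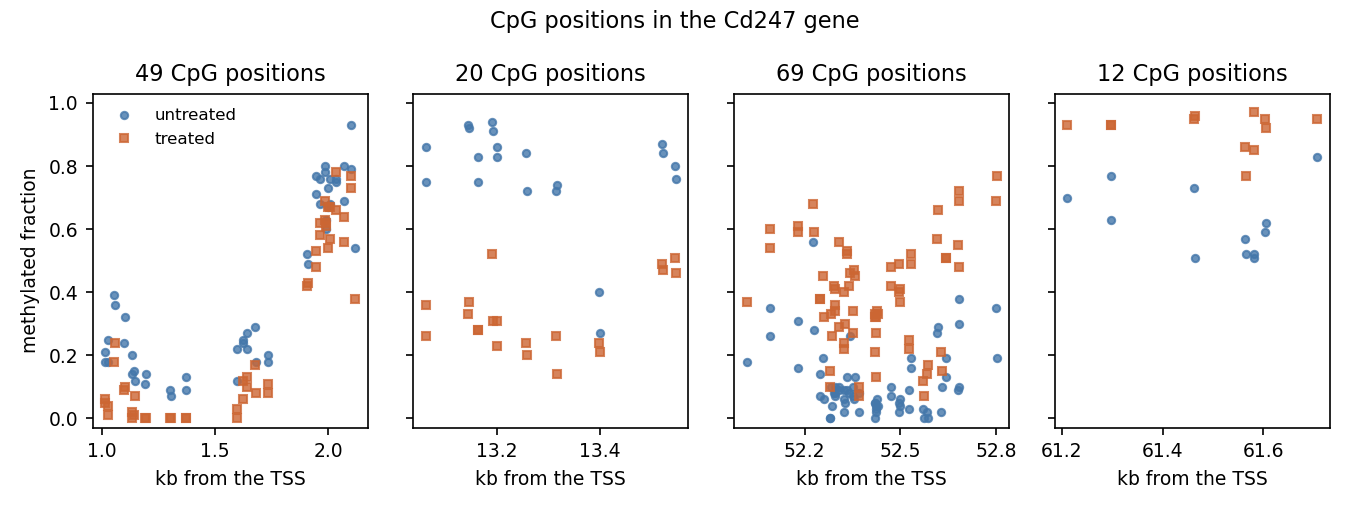
Methylation of each CpG position in the 4 Cd247 regions, as the fraction of methylated reads (0 to 1) against distance from the start of the gene, for the untreated and the treated pool. Treated points lie below untreated ones at all but 2 positions of the losses and above them at every position of the gains.

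The long gain is shown for its density of CpGs, 23 in 300 bases, and the second loss for the strongest separation of the ATAC endings in this gene. CpG dinucleotides are in capitals and both stretches are the plus strand. The 46 positions of the printed gain averaged 0.075 and 0.344, and the 14 of the printed loss 0.829 and 0.292.
Cd247 gain, chr1:165840916-165841215: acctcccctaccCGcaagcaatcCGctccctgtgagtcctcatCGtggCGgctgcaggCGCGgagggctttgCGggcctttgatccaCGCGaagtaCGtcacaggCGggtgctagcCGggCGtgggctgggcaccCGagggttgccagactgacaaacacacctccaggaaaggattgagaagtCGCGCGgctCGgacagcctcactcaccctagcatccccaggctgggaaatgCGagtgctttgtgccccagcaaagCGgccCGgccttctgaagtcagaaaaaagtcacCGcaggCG
Cd247 loss, chr1:165801744-165802043: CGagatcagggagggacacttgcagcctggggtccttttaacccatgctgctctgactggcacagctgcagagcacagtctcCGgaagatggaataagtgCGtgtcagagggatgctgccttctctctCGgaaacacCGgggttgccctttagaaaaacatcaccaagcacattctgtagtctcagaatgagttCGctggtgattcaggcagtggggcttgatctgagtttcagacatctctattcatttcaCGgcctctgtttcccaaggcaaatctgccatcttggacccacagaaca

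In the loss at 13.3 kb, ending 1 had 51 insertions and ending 2 had 663, or 0.314 and 4.43 IPM, 14.0-fold more in ending 2. The gains went the other way, with 5.97 and 4.67 IPM in the long one and 2.01 and 0.909 in the second (log2 of ending 1 over ending 2 of 0.35 and 1.14). The loss next to the start held 11.2 and 15.0 IPM and the Cd247 promoter 37.1 and 39.4. RNA of Cd247, as given above, was alike in the groups. The 3′ end of Cd247 overlaps Pou2f1 on the other strand, and since the sources used here do not state stranded counting, reads of both may be mixed. Cd3e, Zap70, Lck, Lat and Ptpn22 overlap only annotated noncoding genes, pseudogenes or microRNAs, to which the same limit applies.

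Lck, the kinase that acts first, was the most abundant member, at 2545 CPM in the untreated and 2856 in the treated pool (log2 ratio 0.17). It was read in 61.5% of untreated cells (interval 55.5 to 67.3) and 71.3% of treated cells (65.3 to 76.8), a difference of 9.78 points, just under the limit of 10. It was 14.2 points (61.3% and 75.5%) without the cells that carried reads of other cell types, 10.05 points when at least 5 reads were required, 8.98 points with every cell thinned to 100000 reads, and 7.53 points over all cells of the tables. It was 12.1 points in lane 1 and 4.55 points in lane 2. The pooled level was higher in lane 1 (log2 ratio 0.23) but not in lane 2 (2116 and 2007 CPM, -0.08), so no direction is read from it. Per kilobase it ranked 24 and 22 of 10807 genes. It had 3 losses within 50 kb. In the first, chr4:129570133-129571527 in an intron, 34 of 41 positions were lower (0.380 and 0.254). In the second, chr4:129580550-129580823, 7.0 kb before the start and in no gene, all 14 were lower (0.697 and 0.215), and the endings had 1.82 and 5.49 IPM. The third, chr4:129620708-129621662, overlapped Ccdc28b and Tmem234, 47.5 kb before the start, with 0.683 and 0.367 and nearly equal insertions (0.953 and 0.969 IPM).

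Lck has 2 annotated starts in RefSeq, a distal and a proximal one. Within 500 bases of the distal start the endings had 20.4 and 27.6 IPM, and of the proximal start 24.3 and 24.3. In the wider promoter window Lck had 106 and 124 IPM, rank 463 and 197 of 20908 promoters, the most open of the 9.

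Zap70, the kinase that binds the phosphorylated tails, had the largest higher value of the 9, at 570 CPM in untreated (interval 567 to 574) and 919 CPM in treated cells (915 to 924), 1.61-fold. Reads lay in 32.2% (26.7 to 38.1) and 41.8% (35.7 to 48.2) of cells, 9.60 points apart, and the intervals of the shares overlap. The shares were 32.0% and 43.9%, 11.9 points apart, without the cells that carried reads of other cell types, 10.27 points apart when at least 5 reads were required, 9.24 points apart with every cell thinned to 100000 reads, and 9.46 points apart over all cells of the tables. They were 6.22 points apart in lane 1 and 16.8 points apart in lane 2. In positive cells the medians were 1591 and 2043 CPM. Both sequencing lanes gave a log2 ratio above 0, of 0.59 and 0.90.

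Zap70 also had the densest methylation losses, with 4 regions whose middles lay between 0.2 kb before and 6.5 kb after the start. The first, chr1:36761217-36761931, spanned the start, and all 37 positions were lower in treated cells (0.156 and 0.017). The next 2, chr1:36762031-36762342 and chr1:36764259-36764732, were lower at all 18 and all 14 positions (0.164 and 0.009, and 0.119 and 0.018), and the last of these covers a second RefSeq start. The fourth, chr1:36767941-36768694, held 10 positions and had means of 0.604 and 0.215. The 250 bases before the start are shown since Zap70 is the only member with its most upstream start inside a DMR, plus strand with CpGs in capitals, and their 12 positions averaged 0.096 and 0.011.
Zap70 upstream, chr1:36761548-36761797: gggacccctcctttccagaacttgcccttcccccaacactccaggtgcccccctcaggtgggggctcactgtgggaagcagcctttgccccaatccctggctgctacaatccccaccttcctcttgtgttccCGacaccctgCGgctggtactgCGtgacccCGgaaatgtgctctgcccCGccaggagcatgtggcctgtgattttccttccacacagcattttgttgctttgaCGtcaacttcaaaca

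Zap70 has 3 RefSeq promoters (GRCm38.p6, 250 bases before to 50 after each start). The most upstream one held GGAA, the core that ETS factors bind, 10 times on both strands together, where the median of 32851 promoters was 3 and 96.0% held at least 1. The other 2 held it 7 and 0 times. CACCTG, an E-box that E proteins and their rivals bind, was in 9 of the 13 member promoters, from 7 of the 9 genes, and in 20.2% of all promoters. TGTGGT was in 4 of 13 (16.8% of all) and CTTTGA in 4 of 13 (16.003%). These are matches of letters in this window and not shown sites. Insertions at the Zap70 promoter were 74.5 and 74.99 IPM, and the first 3 regions differed by at most 1.148-fold between the endings.

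Lat, the scaffold that Zap70 phosphorylates, was the member with neither a DMR within 50 kb nor a 2-fold difference in RNA. It stood at 787 and 652 CPM (log2 ratio -0.27) with reads in 52.4% and 46.6% of cells, and its promoter at 40.0 and 44.2 IPM. The nearest regions were 74.1 kb and 86.0 kb away, in Sbk1.

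Sit1, the inhibitory adaptor, went from 468 CPM (interval 465 to 471) to 137 CPM (135 to 139), a log2 ratio of -1.77. It was read in 67 of 273 untreated cells (24.5%, 19.6 to 30.1) and 21 of 251 treated cells (8.37%, 5.25 to 12.5). In positive cells the medians were 1921 and 1584 CPM, 0.825-fold, so the pooled difference lay mostly in how many cells had reads. A single treated cell held 16.98% of the Sit1 reads of its group. The ratio was -1.97 in lane 1 and -1.29 in lane 2, and -1.71 without the cells that carried macrophage, hepatocyte or B cell reads. With every cell thinned to 100000 reads, the shares were 24.1% and 8.07%. Per kilobase, Sit1 ranked 84 in untreated and 392 in treated cells.

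No matching difference stood at the Sit1 gene itself. Its only DMR within 50 kb, chr4:43522337-43522656, lay 38.6 kb from the gene within Tpm2, with 12 positions and means of 0.909 and 0.636. Insertions there were few in both endings, 70 and 52, and the Sit1 promoter had 39.2 and 37.1 IPM.

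Ptpn22, the phosphatase acting on Lck and Zap70, stood at 512 and 495 CPM (log2 ratio -0.05) with reads in 31.9% and 26.7% of cells. The lanes disagreed in sign, with 0.29 in lane 1 and -0.76 in lane 2. Its shares of positive cells were 26.63% and 27.75% in lane 1 and 42.7% and 24.4% in lane 2, so no direction is read from level or share. It had 4 losses. Those before the gene were chr3:103829171-103829526 (0.719 and 0.248) and chr3:103850665-103852056 over Bcl2l15 (0.426 and 0.131). Those in introns were chr3:103861512-103862222, 2.1 kb after the start (0.179 and 0.021), and chr3:103907446-103907740, 47.8 kb in (0.907 and 0.362). All positions of all 4 were lower in treated cells. The last one is shown, plus strand with CpGs in capitals, since it had the largest loss of the 19 regions near members and the widest gap between the endings, 43 against 623 insertions, or 15.6-fold more in ending 2.
Ptpn22 intron, chr3:103907446-103907740: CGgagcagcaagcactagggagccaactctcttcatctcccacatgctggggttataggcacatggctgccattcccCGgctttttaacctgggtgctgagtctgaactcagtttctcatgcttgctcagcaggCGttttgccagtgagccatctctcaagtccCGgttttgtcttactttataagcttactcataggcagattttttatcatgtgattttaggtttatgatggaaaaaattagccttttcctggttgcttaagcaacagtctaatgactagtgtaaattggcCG

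The other 2 distal Ptpn22 losses had 0.184 and 1.24, and 6.05 and 15.3 IPM, again more in ending 2. The loss close to the start had 2.20 and 2.36, and the promoter 66.4 and 66.0.

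Counted together, 19 DMRs lay within 50 kb of a member, 17 losses and 2 gains, and 14 of them in a member's body. Of the 9 genes, 8 had a loss within 50 kb, against 11.3% of 22028 protein-coding genes, and 1 had a gain, against 6.90%. In the gene body 6 had a loss and 1 a gain, against 4.03% and 2.57%, and 6 had either, against 6.07%. Within 2 kb of the start 6 had a loss, against 0.586%, and none a gain, against 0.286%, which makes 6 with either, against 0.867%. Within 50 kb 8 had either, against 16.6%. Cd3d, Cd3e and Cd3g share 3 of these regions and are not 3 separate cases. Since the members were listed with earlier results of these data known, these shares describe the list and are no test of enrichment. Of 47 other protein-coding genes of the pathway, 22 had a loss and 19 a gain within 50 kb, while none of 17 marker genes of hepatocytes, B cells, macrophages and NK cells had a DMR in that distance.

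**Figure D3:**
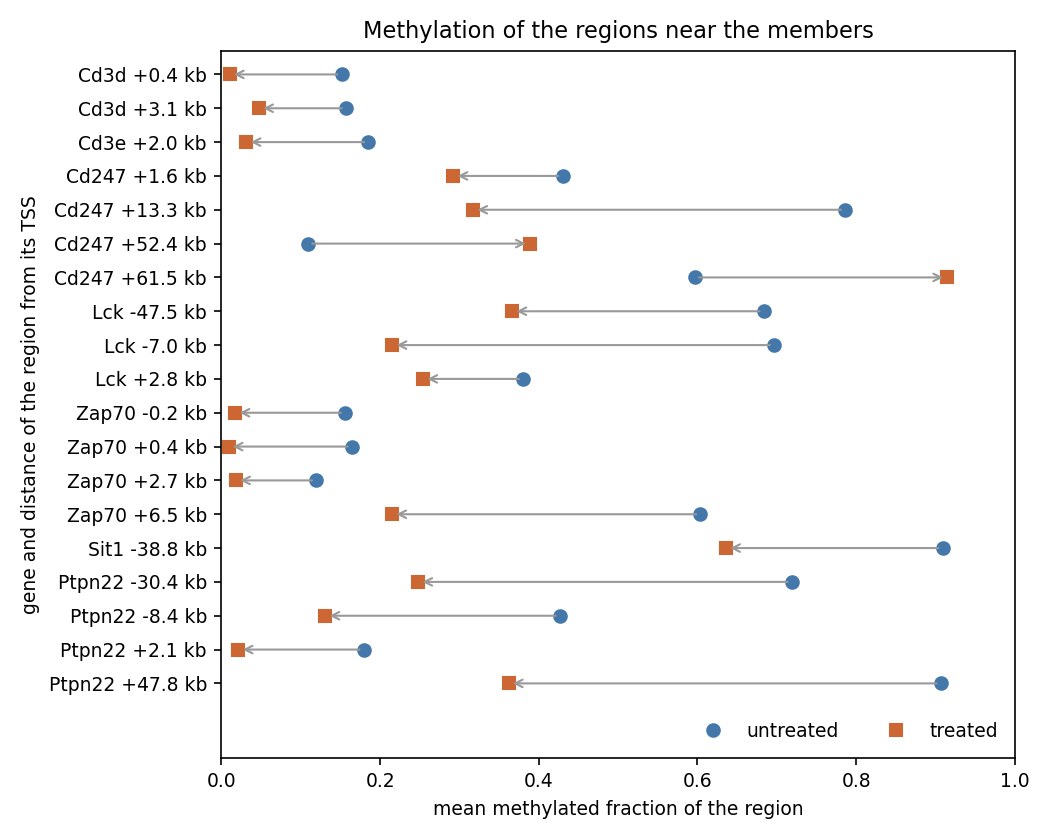
Deposited mean methylation of the region (fraction of methylated reads, 0 to 1) in untreated and treated cells for the 19 DMRs within 50 kb of the 9 genes. The 7 regions of Cd3d, Cd3e, Zap70 and Ptpn22 below 0.2 in untreated cells lie at 0.047 or less in treated cells, and the 2 Cd247 gains are the only ones higher in treated cells.

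The losses near members were shallower than most. Their median difference was -0.16, against -0.38 over all 1983 losses, and the untreated medians were 0.426 and 0.832. Of the 17, 7 had a deposited mean below 0.2 in untreated cells, between 0.119 and 0.185, and ended between 0.009 and 0.047. By the plain average of its positions, the Ptpn22 region among them stood at 0.213 in untreated cells. Among all losses 78 (3.93%) started that low, a limit chosen after the values were seen.

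None of the 9 member promoters differed by 2-fold, against 2.97% of 20908 promoters higher in ending 1 and 7.93% higher in ending 2. Of the 17 member losses, 6 had at least 2-fold more insertions in ending 2, against 74.3% of 1896 losses, and none in ending 1, against 0.527%. Of the 7 that started below 0.2 it was 1, the Cd3e intron, against 6.49% of 77 in the list, and of the other 10 it was 5, against 77.2% of 1819. Of the 2 gains 1 had at least 2-fold more insertions in ending 1, against 35.7% of 854 gains, and none in ending 2, against 1.99%. Some promoters of the NK cell, macrophage and B cell gene lists also differed between the endings. The NK cell list does not set apart cells without CD3 here, since 122 of the 125 treated SmartSeq2 cells with its reads carried CD3 reads. The median log2 of ending 1 over ending 2 was -1.11 over the 4 NK cell promoters, 2 of them at least 2-fold higher in ending 2 (mean levels 3.43 and 7.86 IPM), and -0.72 over the 5 macrophage promoters, 1 of them past 2-fold (0.240 and 0.433 IPM). The medians were 0.04 for B cell promoters, with 1 of 4 at least 2-fold higher in ending 2, 0.24 for hepatocyte promoters and -0.05 for the 9 members. Whether cells of other types had a part in the differences at the DMRs was not tested.

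**Figure D4:**
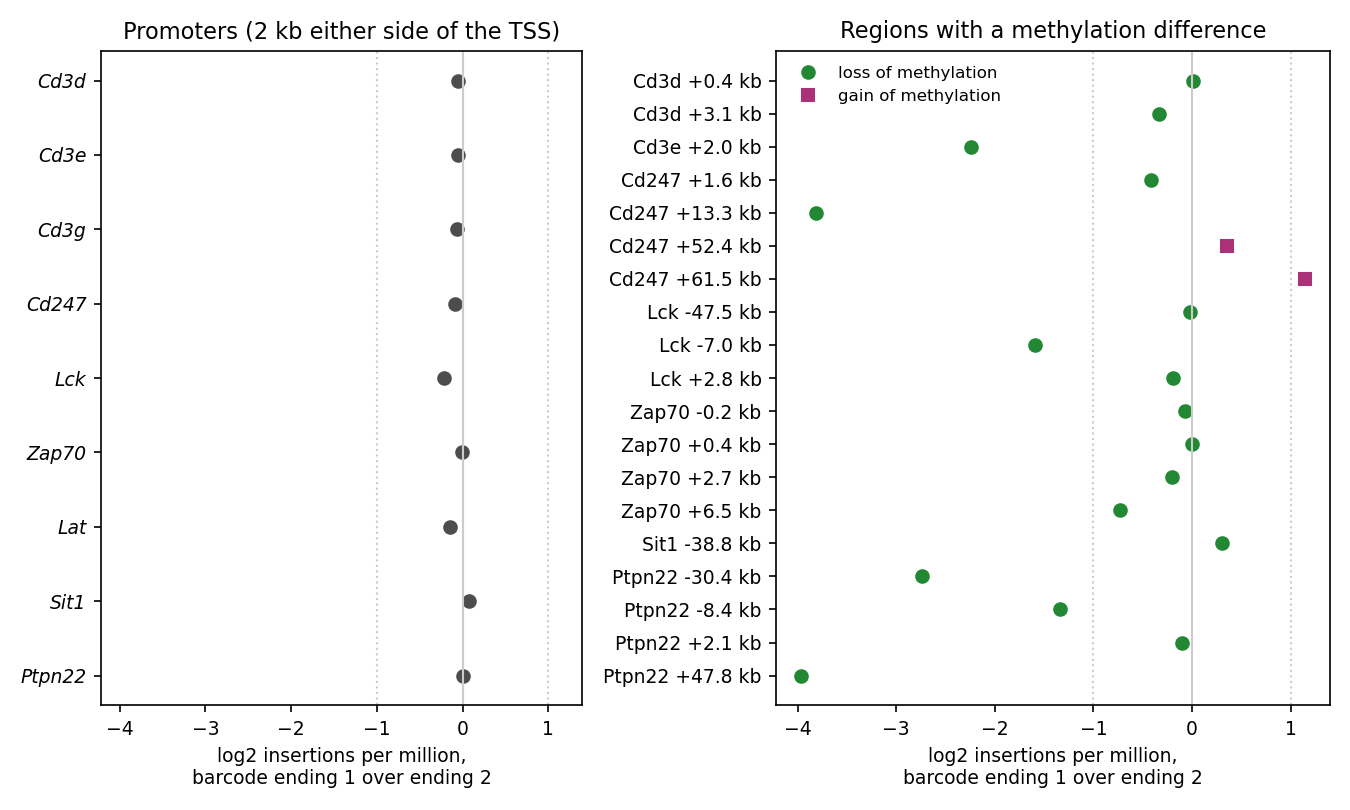
ATAC insertions per 1000000 (IPM) as log2 of barcode ending 1 over ending 2 for the 9 promoters (2 kb to each side of the start) and the 19 DMRs, with losses and gains marked. Promoters lie between -0.22 and 0.08, and 6 losses lie below -1, down to -3.96 in Ptpn22.

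Across the sub-clusters that the study assigned to the SmartSeq2 cells, which rest on expression and so serve as a description, Zap70 and Sit1 showed different patterns. Of untreated cells 228 lay in sub-cluster 2, 43 in 4 and 2 in 3, and of treated cells 61 lay in 2, 133 in 4 and 57 in 5. Zap70 reached 1735 CPM and 61.4% of cells in treated sub-cluster 5, against 516 to 718 CPM and 30.7% to 39.5% in the other sub-clusters of more than 2 cells. Without the 14 cells that carried macrophage or hepatocyte reads, treated sub-cluster 2 stood at 940 CPM and 42.6%. Cd3d (1191 CPM), Cd3e (585), Cd3g (2282), Lck (3311) and Ptpn22 (725) were also at their highest there among these sub-clusters, where the median of reads per cell was highest too, at 664100. Lat and Sit1 were not, and Cd247 stood at 296 CPM in treated sub-clusters 4 and 5 and untreated sub-cluster 4 alike. Sub-clusters 2 and 4 held cells of both groups. Zap70 stood at 572 CPM in untreated and 718 in treated cells of sub-cluster 2, and at 516 and 619 CPM in sub-cluster 4. Its share of positive cells was 30.7% and 34.4% in sub-cluster 2, but 39.5% and 36.8% in sub-cluster 4, lower in treated cells.

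**Figure D5:**
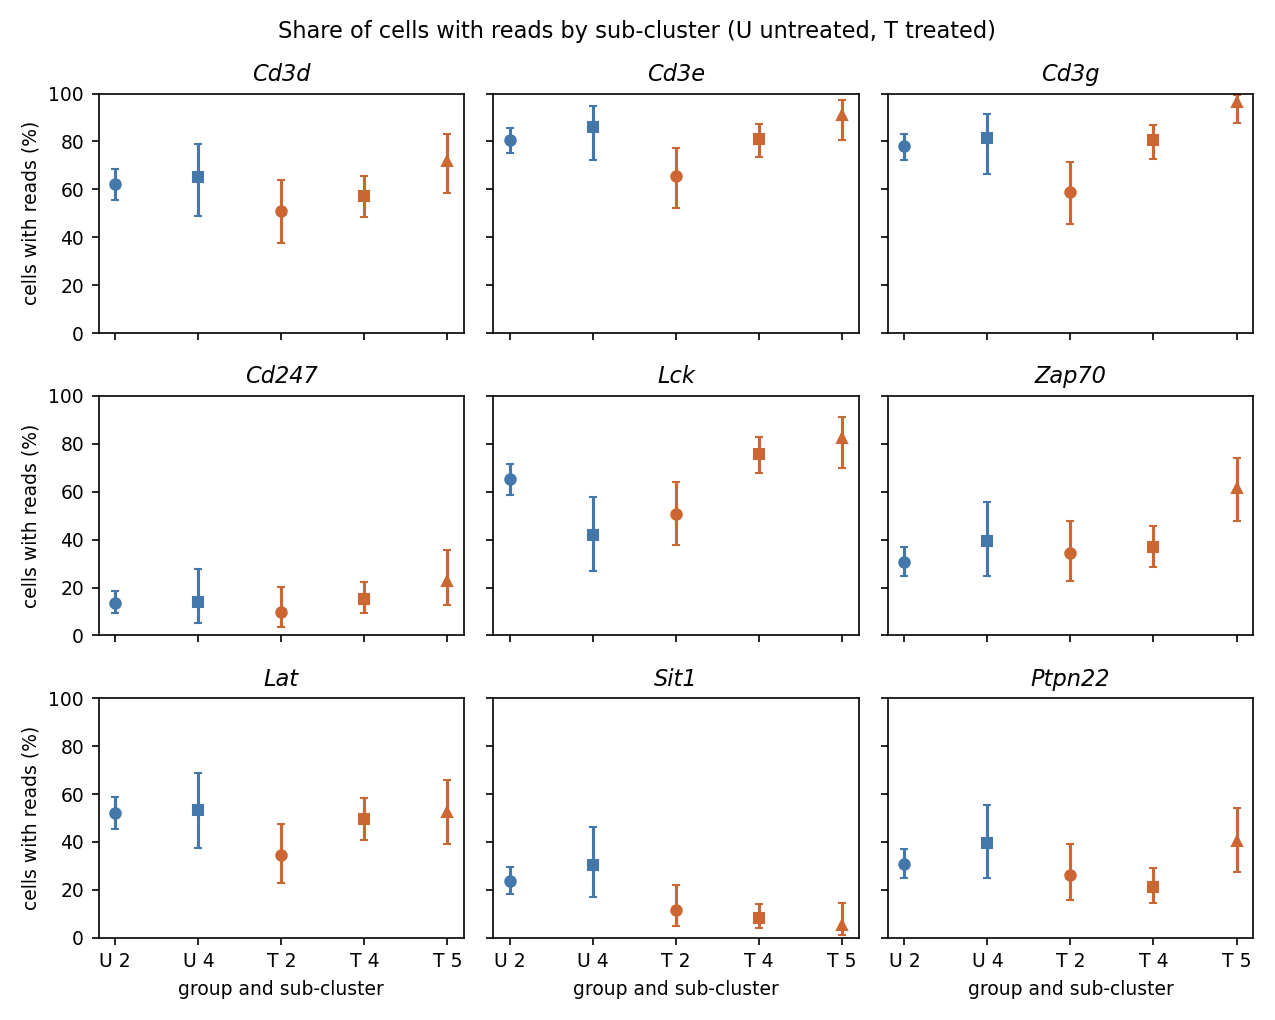
Share of cells with reads (percent, exact 95% intervals for counting error) for the 9 genes in each sub-cluster and group of the SmartSeq2 cells. Sit1 lies at 23.7% and 30.2% in the untreated sub-clusters 2 and 4 and between 5.26% and 11.5% in the treated ones, and Zap70 peaks in treated sub-cluster 5.

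Sit1 was lower in each treated sub-cluster. It had reads in 23.7% (interval 18.3 to 29.7) and 30.2% (17.2 to 46.1) of untreated sub-clusters 2 and 4, and in 11.5% (4.74 to 22.2), 8.27% (4.201 to 14.3) and 5.26% (1.10 to 14.6) of treated sub-clusters 2, 4 and 5. In treated sub-cluster 2 it was 14.9%, with 205 CPM, without the cells that carried reads of other cell types. Lck had reads in 41.9% of untreated and 75.9% of treated cells of sub-cluster 4, with 1905 and 2935 CPM. In sub-cluster 2 it had reads in 65.4% and 50.8% of cells, with 2669 and 2155 CPM, and without the cells that carried reads of other cell types in 65.2% and 66.0%, with 2649 and 2823 CPM. The treated cells of sub-cluster 2 had reads on Cd3e in 65.6% and on Cd3g in 59.0% of cells. All 14 treated cells with macrophage or hepatocyte reads were in that sub-cluster, and in the other 47 the shares were 83.0% and 74.5%.

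The cells with NK cell reads differed from the others in some members. Among treated cells Lck had reads in 79.2% of those with NK cell reads and 63.5% of the rest, a rest that includes cells with macrophage reads and had CD3 reads in 89.7% of cells. Among untreated cells the Lck shares were 58.8% and 62.4%. Zap70 stood at 608 CPM in the treated cells with NK cell reads and 1224 CPM in the rest. Sit1 was below the untreated values in both, at 98.5 and 174 CPM, against 329 and 516 CPM in untreated cells with and without NK cell reads.

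The members did not vary together from cell to cell beyond a small degree. Over the 524 cells, which share mice and sequencing lanes and differ in depth and detection, Pearson's r of log levels between 2 members was low. It ran from -0.05 (Cd247 and Zap70) to 0.16 (Cd3e and Cd3g). Among 952 widely detected genes, 5 followed the mean of the CD3 chains most closely. They were Pfn1 (r = 0.28), Rac2 (0.26), Nkg7 (0.24), Actb (0.22) and Tmsb4x (0.19), all low values. The 524 cells included the 11 treated cells with macrophage reads, of which 1 had a read on any CD3 chain. Values of r without those cells were not computed.

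In the wider TCR pathway, lists of 54 other genes chosen by function held 52 with at least 10 counts, of which 4 were at least 2-fold higher and 9 at least 2-fold lower in treated cells, with a median log2 ratio of -0.11. These are 7.69% and 17.3% of the 52, against 20.1% and 17.2% of all genes tested, so the share that was lower is at the background. Of the 32 with a mean of at least 100 CPM, 2 were higher (6.25%) and 4 lower (12.5%), against 6.16% and 5.41% of genes at that level. The TCR constant genes had 0 of 6 past 2-fold, with Tcrg-C1, named after its value was seen, at the edge (82.1 and 40.9 CPM, -0.989 after adding 1 CPM and -1.005 after adding 0.1). It stood at -0.58 in lane 1 and -2.17 in lane 2. Among kinases and their regulators 4 of 9 were lower and none higher, with a median of -0.61. Themis, a regulator of the cascade in developing T cells, was lowest at 122 and 6.65 CPM (-4.00), and Tespa1 (-1.36) and the Tec family kinases Tec (-1.25) and Txk (-1.19) were the others. For Tec, 70.3% of the untreated reads lay in 1 of 8 positive cells, and the ratio was -0.54 without the cell with most reads in each group and 0.32 in lane 1, so no direction is read from it. Of the adaptors Trat1 (96.4 and 29.6 CPM, -1.67) and Grap2 (-1.57), which ties Lat to SLP-76, were lower. Of the 7 effectors Rasgrp1, the Ras activator (-1.30), and Plcg1, the phospholipase that Lat recruits (-1.22), were lower. Of the 10 negative regulators 3 were higher, Dok1 (1.40), Sla2 (1.04) and Ubash3b (1.02, named after its value was seen), and 1 was lower, the phosphatase Ptpn2 (-1.24). The coreceptor Cd4 stood at 79.3 and 207 CPM (1.38), with reads in 5.13% and 11.95% of cells. Some of these ratios rest on few positive cells. Themis had reads in 27 untreated and 5 treated cells, Grap2 in 34 and 15, Trat1 in 16 and 10, and Dok1 in 3 and 11. A single treated cell held 40.5% of the Themis reads and another measure of this kind was 45.3% for Grap2. Without the cell with most reads in each group the ratios were -4.49 for Themis and -2.17 for Grap2. In both lanes Themis, Grap2, Tespa1, Plcg1, Txk and Cd4 kept their direction and a 2-fold difference, whereas in lane 2 alone Dok1 stood at -0.31, Ubash3b at -1.39, Ptpn2 at 0.77, Sla2 at 0.01, Rasgrp1 at -0.54 and Trat1 at -0.55.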

How the data were processed

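The members and all gene lists were chosen with earlier results of these data known. The SmartSeq2 tables hold whole read counts per gene and cell as deposited by the authors, aligned with STAR to GRCm38 without molecular identifiers. The methylation tables hold fractions of methylated reads per CpG and per differentially methylated region for each group, as deposited by the authors after BSMAP mapping to mm10 and region calling with metilene. How replicate animals were joined, and the depth, are not given in the sources used here. The region list also holds q-values and differences of the authors' own comparison, which were not used. The number of CpG positions per region was taken as deposited. The ATAC file holds fragments with read counts, made by the authors with Cell Ranger, with both groups in 1 file, and each fragment gave 2 insertions (its ends).

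CPM was computed over the summed cells (273 untreated with 172559865 counts, 251 treated with 149084200), over the cells that carry a sub-cluster in the study's list (of 284 and 282 in the tables). A filter of at least 500 genes and under 10% mitochondrial counts was an alternative. Ratios used a prior of 1 CPM and genes with at least 10 summed counts. A 2-fold difference, or 10 percentage points for the share of cells, was the limit for a call. With 1 sample per group no test was run, and Poisson and binomial intervals (exact, 95%) cover counting error only, as PCR reads are not independent molecules. Cells carry 1 of 2 sequencing lanes in their names (184 and 89 untreated, 173 and 78 treated cells), and values were also computed per lane. Gene coordinates and exon lengths came from GENCODE M21 (55141 of 55401 genes matched by identifier), and promoter and region sequences from RefSeq GRCm38.p6. DMR starts were raised by 1 to count from 1. ATAC barcodes with at least 1000 fragments were used (162696748 insertions for ending 1, 149628466 for ending 2), with no step to remove doublets in either single-cell assay. Named genes outside the 9 were those of the pathway lists at least 2-fold different with at least 500 counts, at most 12, largest first. The 5 genes most like the mean of the CD3 chains were named too. The counting step was tested on simulated data. The alternatives were other priors, limits, filters, lanes, windows and a minimum of reads, and, added after the data were seen, leaving out cells with reads of other cell types, a comparison with genes of at least 100 CPM and the split of losses at 0.2. The bulk ATAC, ChIP and other samples of the series were not used here. Python 3.11.15, pandas 2.3.3, numpy 2.4.6, scipy 1.17.1, matplotlib 3.10.9 and samtools 1.23.1 were used.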

Additional observations from a re-analysis of the deposited data

How the results depend on the processing

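Of 39 recomputed counts, 32 stayed within 1.5 times the value in the report. With a limit of 1.5-fold in place of 2-fold, 2 members differed (Zap70 and Sit1) and 22 pathway genes in place of 13. At that limit 27.3% of all genes tested were higher and 24.5% lower, so these counts are not set apart from the background. The count of members whose share of cells moved by at least 10 points was 1, and became 3 when at least 5 reads were required (Lck, Zap70, Sit1), 2 in lane 1 (Lck, Sit1) and 3 in lane 2 (Zap70, Sit1, Ptpn22). With a difference of at least 0.3 required, 4 members had a DMR within 50 kb in place of 8. For this limit and for the altered shares of cells, no share over all genes is given. The ATAC count stayed at 0 in each alternative run. Of 90 recomputed log2 ratios of single members over 10 settings, 6 had the other sign (1 each for Cd247, Cd3d and Lck, 3 for Ptpn22). Sit1 ranged from -1.97 to -1.29 and Zap70 from 0.59 to 0.90, and the cause of these moves was not tested. One setting, without the cells that carried reads of other cell types, was chosen after seeing the data. There 1 member and 14 pathway genes differed by 2-fold, beside 17.8% of all genes higher and 17.5% lower. In that setting 3 members (Lck, Zap70, Sit1) moved by at least 10 points in their share of cells, with no share over all genes to set beside them. No paired analysis was possible because each group of the 3 kinds of data had 1 set of values and no result comes from a test. The expression and ATAC data had 1 sample of several mice per group, and the methylation data 1 deposited value per group. Animal, preparation and treatment therefore cannot be told apart, and in the methylation data the groups also differ in age. Depth behind the methylation fractions is unknown. Genes read in few cells, such as Cd247 and Sit1, rest on few positive cells.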
